A study of Mus musculus with 63 samples.

Results

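Hearts with much and little Myh7 message were compared within each of 8 inbred mouse strains. The groups were chosen by the measured level of Myh7. A library was called high when Myh7, in CPM (counts scaled to a common library size, with factors from TMM), lay above the median of its strain, and low when it lay at or below that median. TMM corrects library sizes so that most genes lie level between libraries. Of 63 libraries, 31 were high and 32 were low: 3 and 4 in Cast, and 4 and 4 in each of 129, AJ, B6, NOD, NZO, PWK and WSB. Because Myh7 made the groups, its own values are a description with no test, and each test is on other genes.

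The data are RNA-seq profiles of polyA RNA from heart of the 8 inbred founders behind the Diversity Outbred mice. Every animal received the same high-fat, high-sugar diet with 45% fat. No other treatment or allele is given in the labels, and the labels used here hold no sex or age. High and low hearts therefore share strain and diet and differ in no labelled factor. Each library was taken as 1 mouse. Only the title identifiers point to separate animals, so p-values measure the spread between these libraries. The libraries held between 21.8 M (M, mega) and 42.9 M estimated counts each.

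Myh7 encodes the beta, or slow, cardiac myosin heavy chain and lies beside Myh6, which encodes the alpha, or fast, chain. The mouse ventricle carries mainly the beta chain before birth and switches to the alpha chain afterwards under thyroid hormone. In loaded or failing rodent hearts Myh7 returns, commonly beside skeletal actin Acta1 and the natriuretic peptides Nppa and Nppb, a set known as the fetal gene programme.

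Both myosin genes lie on the minus strand of chromosome 14 and share long stretches of coding sequence. Transcripts of 6135 bases for Myh7 and 6113 bases for Myh6 were compared in GRCm38. Of the 50-base windows of the Myh7 transcript, 22.6% also occur in that of Myh6, and of the 100-base windows 11.4% do. The longest identical run is 245 bases and is coding throughout. It joins exons 32 and 33 of 41 in Myh7 (chr14:54974947-54975347) and exons 30 and 31 of 39 in Myh6 (chr14:54948327-54948725). It is shown because reads inside it can come from either gene.
Shared Myh7 and Myh6 run: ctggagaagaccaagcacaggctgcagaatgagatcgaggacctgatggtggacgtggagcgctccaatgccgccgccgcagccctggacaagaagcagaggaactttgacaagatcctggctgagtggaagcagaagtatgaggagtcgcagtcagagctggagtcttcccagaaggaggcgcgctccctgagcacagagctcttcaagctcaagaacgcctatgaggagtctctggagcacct
The deposited Myh7 and Myh6 counts were not whole numbers in any of the 63 libraries. How the authors divided shared reads is not given in the sources used here, so the level of the less abundant Myh7 is uncertain by an amount that was not tested.

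Promoters of 5 genes were searched for the letters of the MCAT element, a muscle motif read by TEAD factors. Those of Myh7, Myh6 and Acta1 are shown to set these genes side by side. Each of them holds 1 match, as does that of Nppb, and that of Nppa holds 0. The windows run from 250 bases before to 50 after the start site (RefSeq, GRCm38.p6). Capitals mark CATTCC or its reverse GGAATG, searched on both strands.
Myh7, minus strand (chr14:54994577-54994876): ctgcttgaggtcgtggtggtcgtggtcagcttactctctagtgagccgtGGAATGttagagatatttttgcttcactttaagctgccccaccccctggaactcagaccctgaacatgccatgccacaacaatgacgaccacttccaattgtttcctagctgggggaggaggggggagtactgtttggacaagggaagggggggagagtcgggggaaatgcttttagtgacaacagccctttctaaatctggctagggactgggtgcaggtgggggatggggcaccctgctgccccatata
Myh6, minus strand (chr14:54966558-54966857): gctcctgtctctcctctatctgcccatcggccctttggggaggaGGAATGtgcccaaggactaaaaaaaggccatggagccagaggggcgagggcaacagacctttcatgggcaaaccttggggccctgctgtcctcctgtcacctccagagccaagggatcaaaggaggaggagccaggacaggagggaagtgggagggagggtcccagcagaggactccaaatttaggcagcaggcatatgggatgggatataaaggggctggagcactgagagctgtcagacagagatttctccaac
Acta1, minus strand (chr8:123894726-123895025): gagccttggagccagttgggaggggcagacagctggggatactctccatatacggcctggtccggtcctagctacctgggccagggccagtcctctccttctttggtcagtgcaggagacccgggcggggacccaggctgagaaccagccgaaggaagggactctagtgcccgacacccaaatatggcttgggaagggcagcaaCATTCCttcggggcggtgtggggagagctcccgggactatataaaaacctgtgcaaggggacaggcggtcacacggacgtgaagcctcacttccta
The motif begins at -206 in Myh6 and at -46 in Acta1, counted from the start site, and in Myh7 it lies about as far upstream as in Myh6. A further listed Myh7 start site has none in its window. Of 32851 RefSeq promoter windows of this length, 14.7% hold it, so its presence is a description only.

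Myh7 differed more between strains than between high and low hearts of most strains. In 129 the low hearts held 125 to 153 CPM of Myh7 and the high hearts 162 to 189. In AJ the ranges were 123 to 148 CPM in low and 164 to 180.0 in high hearts, and in B6 they were 81.7 to 139 and 152 to 212. These strains therefore split hearts of similar level, with ratios of the high to the low mean of 1.28, 1.27 and 1.47. WSB had the lowest strain median: 93.3, 96.8, 101 and 102 CPM in low hearts and 104, 111, 179 and 206 in high ones, so that the hearts on each side of the split nearly touch.

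The wide splits were those of Cast, PWK and NZO. Low Cast hearts held 898, 1119, 1291 and 1430.1 CPM of Myh7, and high ones 2565, 3288 and 8076. The upper low heart, Cast_8, is the median of this strain of 7 and counts as low by the rule. PWK low hearts lay between 322 and 522 CPM of Myh7 and high ones at 593, 859.5, 1831 and 2406. In NZO the low hearts held 132 to 167 CPM and the high ones 192, 326, 360.1 and 498. NOD stood between, with 374 to 452 in low and 492.6 to 796 in high hearts. The ratio of means was 3.92 in Cast, 3.16 in PWK, 2.22 in NZO, 1.53 in WSB and 1.47 in NOD. Myh7 made up 0.266% of Myh6 plus Myh7 CPM in the lowest library and 21.9% in the highest, Cast_6.

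**Figure D1:**
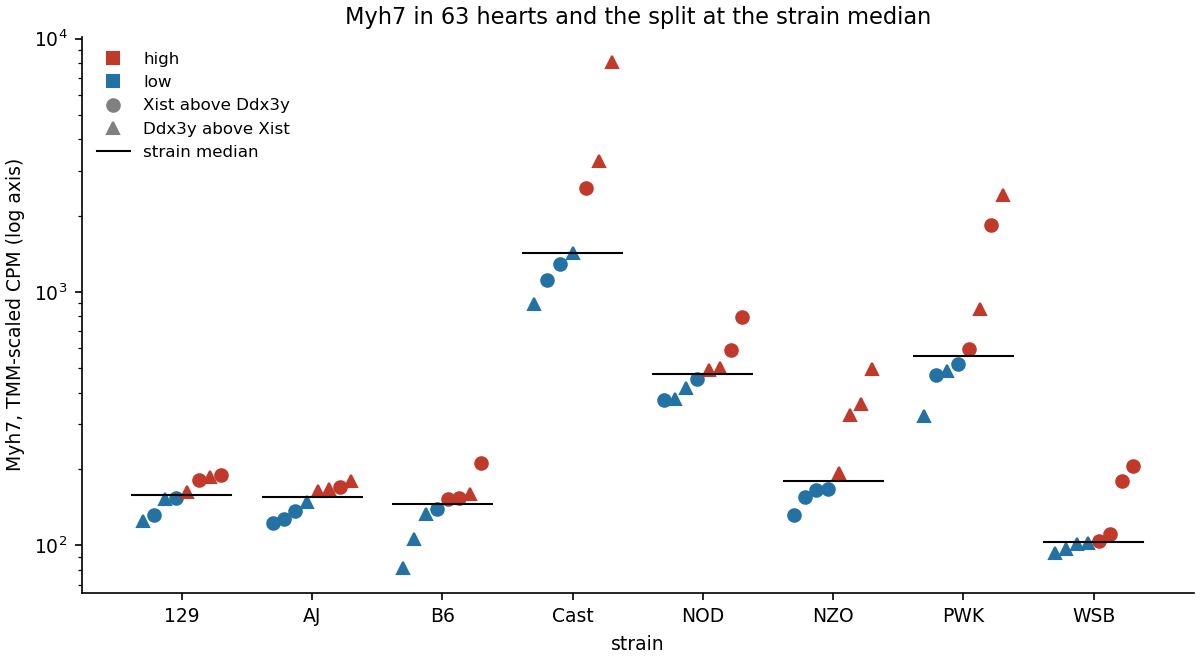
Myh7 in each of 63 libraries by strain (TMM-scaled CPM, log axis), with high hearts in red, low hearts in blue and the strain median as a line; circles have Xist above Ddx3y and triangles the reverse. The split spans 898 to 8076 CPM in Cast but 93.3 to 206 in WSB, and in NZO and WSB it runs along the Xist class.

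Some facts about the libraries touch the results. Libraries fell into 31 with Xist above Ddx3y (232.6 CPM of Xist or more) and 32 with Ddx3y above Xist (at most 2.34 CPM of Xist). In NZO 0 of 4 high and 4 of 4 low hearts were of the Xist class, and in WSB 4 of 4 high and 0 of 4 low hearts were, so within these strains high Myh7 and the Xist class cannot be told apart. Over all strains the Xist class held 15 high and 16 low hearts. The high library WSB_1 stood apart from its strain, with a median correlation of 0.941 to the other WSB libraries over genes. Its Myh6 was 13806 CPM, against 31417 to 36291 in the other WSB libraries, and its summed endothelial markers were 3769 CPM, the highest of the 63 libraries. NZO_8, also high, came next at 0.971, with the highest summed mesothelial, macrophage and neutrophil markers (1663, 902 and 170.0 CPM). The 3 high Cast hearts were the 3 Cast libraries least like their strain, at 0.973 to 0.974. Cast has fewer high than low hearts, so this median compares a high heart mostly with low ones.

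Summed marker levels of other cell types, depth and other library measures were compared between high and low within strains, 23 measures in all, by a two-sided permutation test with Benjamini-Hochberg adjustment. Valve and cartilage-like markers were higher in high hearts by 0.20 on the log2 scale (adjusted p = 0.00334, higher in 6 of 8 strains), with 42.9 to 119 summed CPM in high and 38.8 to 102 in low libraries over 9 of 11 listed genes. The list called slow skeletal muscle fell by 0.12 (adjusted p = 0.00115, higher in 1 of 8 strains), and by 0.05 without WSB_1 (adjusted p = 0.0023). It holds Atp2a2 and Casq2, which heart muscle also uses. The fast skeletal list fell by 0.10 (adjusted p = 0.0185, higher in 1 of 8 strains). A summed level follows its most abundant genes. In Cast this sum was lower in high hearts, while the members past the gene test there, Tnni2, Mylpf, Ryr1 and Atp2a1, all rose. The TMM factor was higher by 0.026 in high hearts (adjusted p = 0.0575, higher in 7 of 8 strains). With the split made on CPM without TMM scaling it was higher by 0.031 (adjusted p = 0.0126). Its part in the gene results was not tested. Atrial markers, at 1158 to 2932 summed CPM in high and 812 to 2993 in low hearts, differed by 0.16 (adjusted p = 0.172). A covariate from the atrial genes Myl7, Myl4, Sln and Bmp10 was fitted as an alternative. With it 9 genes passed over all strains in edgeR, among them the 5 that passed without it. The part of the other markers in the gene results was not tested. In bulk tissue fewer cells of a type and less RNA per cell cannot be told apart.

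Across all strains few genes separated high from low hearts. A quasi-likelihood fit in edgeR with strain as a block called 5 of 16424 genes at an adjusted p under 0.05, which is 0.0304%. Of these, 3 were lower in high hearts (0.0183% of genes), among them Osbpl6 and Prlr, and 2 were higher (0.0122%), Snhg5 and Tmem151a. Without adjustment, 2425 genes (14.8%) had a p under 0.05.

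Osbpl6 (ENSMUSG00000042359, chr2:76406508-76600647), an oxysterol-binding-protein-like protein of lipid transport, was -0.32 ± 0.06 (SE) on the log2 scale (edgeR, adjusted p = 0.0250). High hearts held 5.25, 13.2 and 38.7 CPM of Osbpl6 (lowest, median and highest) and low ones 7.57, 17.2 and 43.1, and the mean was lower in high hearts in 8 of 8 strains. Strain levels differ widely, so that the groups overlap over all strains. Within Cast Osbpl6 was 9.78 to 15.7 CPM in high and 19.5 to 24.5 in low hearts. Within NZO it was 5.25 to 7.01 and 9.84 to 11.2, and within WSB 9.01 to 23.7 and 25.7 to 28.5. The groups did not overlap in these 3 strains, and the changes there were -0.69 ± 0.16, -0.74 ± 0.15 and -0.53 ± 0.14. Of all genes, 12% in Cast, 5.8% in NZO and 3.71% in WSB likewise lay without overlap lower in high hearts. In the other 5 strains the change of Osbpl6 lay between -0.22 and -0.06. The change differed between strains (interaction adjusted p = 0.0375).

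Prlr (ENSMUSG00000005268, chr15:10177238-10349180), the receptor of prolactin, was -0.29 ± 0.06 (SE) on the log2 scale (edgeR, adjusted p = 0.0479), with a lower mean in 8 of 8 strains. In NZO Prlr was 6.28 to 7.72 CPM in high and 10.2 to 11.7 in low hearts, and in Cast 3.09 to 3.61 and 4.73 to 5.57, with no overlap in either. Such a lack of overlap, lower in high hearts, was found for 5.8% of all genes in NZO and 12% in Cast. In AJ Prlr was 11.1 to 13.5 CPM in high hearts, inside the 9.75 to 17.2 of low ones.

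Snhg5 (ENSMUSG00000097195, chr9:88521050-88522929), a host gene of small nucleolar RNAs, was 0.40 ± 0.08 (SE) on the log2 scale (edgeR, adjusted p = 0.0479), and its mean was higher in 8 of 8 strains. It was 4.97 to 11.3 CPM in high and 3.22 to 4.33 in low Cast hearts. Elsewhere the groups came closer, as in PWK with 1.91 to 3.15 CPM of Snhg5 in high and 2.11 to 2.66 in low hearts. Tmem151a (ENSMUSG00000061451, chr19:5070859-5085531), which encodes a membrane protein, was 0.39 ± 0.08 (SE; adjusted p = 0.0479), with a higher mean in 6 of 8 strains. AJ gave its largest estimate (0.86 ± 0.20), with 2.91 to 4.42 CPM of Tmem151a in high and 2.02 to 2.30 in low hearts, which did not pass within that strain (adjusted p = 0.167). In B6 and PWK its estimates were -0.09 and -0.17.

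**Figure D2:**
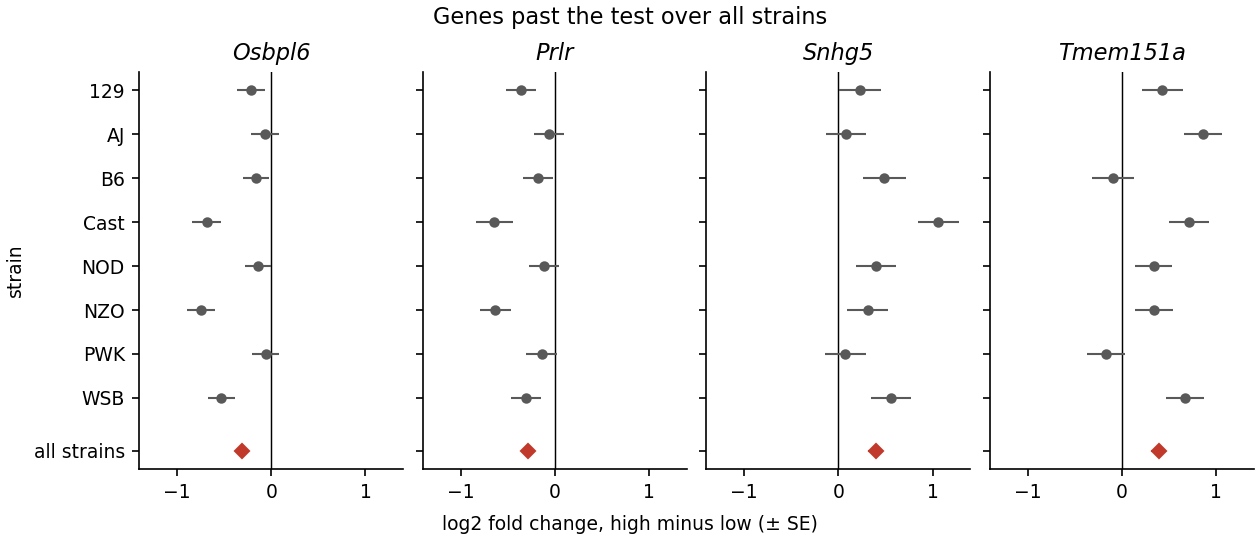
Log2 fold change of high minus low Myh7 hearts for 4 of the 5 genes past the test, within each strain (grey) and over all strains (red diamond); bars are SE. The changes of Osbpl6 are -0.69 in Cast and -0.74 in NZO but -0.07 in AJ and -0.06 in PWK, and Tmem151a is below 0 in B6 and PWK.

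The length of this list rested on single libraries. Leaving out each library in turn gave 0 to 28 genes, with 1 gene in 38 of the 63 fits, 0 without Cast_6 or NZO_5 and 28 (0.17% of genes tested) without WSB_1. Osbpl6 passed in 61 of those 63 fits, Snhg5 in 21, and Prlr and Tmem151a in 16 each, and each of the 5 kept its sign in all 63. Without Cast 1 gene (0.00609%) passed, and it was none of the 5. The 28 genes without WSB_1 hold all 5, and the following ones were chosen after their values were seen. Higher in high hearts were Myom2, a protein of the sarcomere's M-band (0.31 ± 0.06 SE), and the translation factor Eef1a1 (0.12 ± 0.03). Lower were Ryr2, the calcium release channel of the sarcoplasmic reticulum (-0.15 ± 0.03), Opa1, which fuses inner mitochondrial membranes (-0.12 ± 0.03), the muscle kinase Mylk4 (-0.33 ± 0.07) and the muscle membrane protein Ano5 (-0.58 ± 0.13).

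No gene of the fetal gene programme passed the test over all strains. Of 33 measured fetal and stress genes, 0 passed in either direction in edgeR, beside 0.0304% of all genes. Without adjustment 10 of them had a p under 0.05, beside 14.8% of all genes, and DESeq2 called 0. Their median log2 fold change was 0.09 beside 0.01 for all genes, and 21 of 33 were positive, beside 8893 of 16424. The members' changes ran from -0.16 to 0.54.

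Acta1, skeletal actin, was 119.6 to 3108 CPM in high and 93.5 to 1994 in low hearts, and its difference was 0.03 ± 0.12 (SE; adjusted p = 0.937). Its mean was higher in 5 of 8 strains. In 129 the high hearts held 261 to 376 CPM of Acta1 and the low ones 285 to 636, and in Cast 184 to 314 and 183 to 473. The PWK hearts with the most Myh7, PWK_9 and PWK_6, held 203 and 521 CPM of Acta1, and the low PWK hearts 156 to 274. Levels of Acta1 differed by strain, with 93.5 to 163 CPM in B6 hearts, 1193 to 2362 in AJ hearts and 536 to 3108 in NZO hearts, which hold the highest value of the series.

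Nppa, atrial natriuretic peptide, differed by 0.23 ± 0.10 (SE; adjusted p = 0.275), with a higher mean in 7 of 8 strains. In Cast the high hearts held 660.5, 945 and 986 CPM of Nppa and the low ones 383, 465.9, 702 and 717, which overlap. Nppb, the B-type peptide released under wall stress, differed by 0.16 ± 0.13 (adjusted p = 0.562). Its estimate in Cast was below 0, with 17.3, 40.7 and 85.6 CPM of Nppb in high and 41.5, 85.7, 95.8 and 123 in low hearts (-0.85 ± 0.36, adjusted p = 0.0874). The heart with the most Myh7 of the series, Cast_6, held 17.3 CPM, the lowest Nppb of its strain. Ankrd1, a titin-bound protein induced by stretch, differed by 0.14 ± 0.08 (adjusted p = 0.398).

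Myh6, the partner isoform, differed by -0.08 ± 0.04 (SE; adjusted p = 0.360), with a lower mean in high hearts in 7 of 8 strains. In AJ it was 28776 to 30956 CPM in high and 32113 to 35174 in low hearts. In Cast, where Myh7 differed most, Myh6 was 28736 to 33269 CPM in high and 27767 to 29892 in low hearts.

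The highest estimates of the fetal list were those of the metallothionein Mt2 (0.54 ± 0.20 SE, adjusted p = 0.198) and slow skeletal troponin I, Tnni1 (0.52 ± 0.18, adjusted p = 0.186). Tnni1 had a higher mean in 8 of 8 strains, at 0.478 CPM on average in high and 0.378 in low hearts. Ctgf, a matricellular growth factor, differed by 0.27 ± 0.09 (adjusted p = 0.179). Fhl2, a LIM protein of the sarcomere, and Xirp2, an actin-binding protein of the intercalated disc, had the lowest values (-0.16 ± 0.06 and -0.16 ± 0.08). Ankrd23 and Bex1 share 87.5% and 26.8% of their 75-base windows with other genes, so their counts are uncertain.

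**Figure D3:**
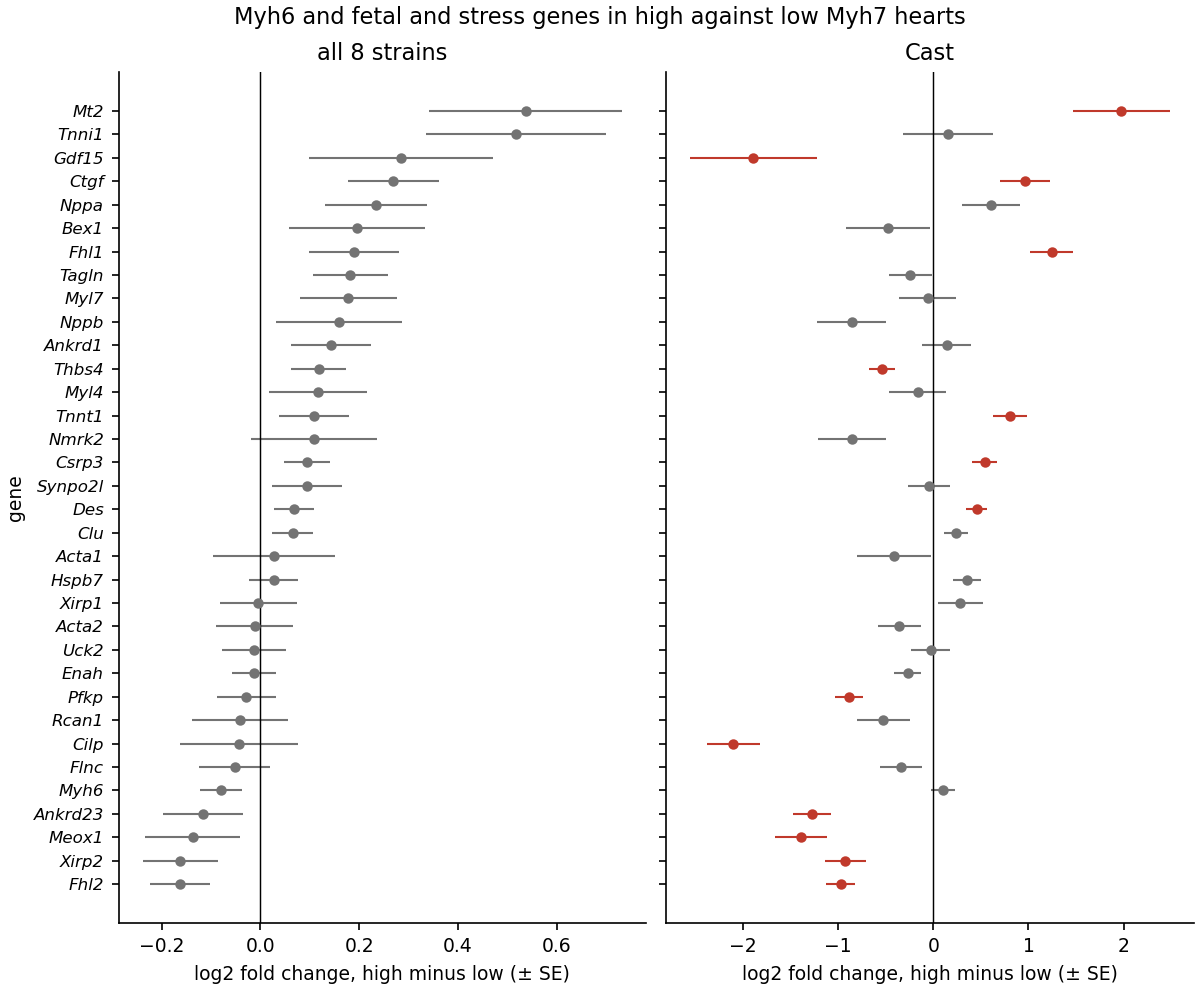
Log2 fold change of high minus low Myh7 hearts (± SE) for Myh6 and 33 fetal and stress genes, over all strains (left) and within Cast (right, wider axis); red marks an adjusted p under 0.05. None is red over all strains, and in Cast 6 are red above 0 and 8 below it.

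Other groups of genes lay to one side without a member past the test. All 16 glucocorticoid-induced genes were positive (median 0.29), among them the iron-carrier-binding lipocalin Lcn2 (0.80 ± 0.25 SE, edgeR adjusted p = 0.154). All 39 cytosolic ribosomal protein genes were positive with a median of 0.10, and all 12 mesothelial markers with a median of 0.22. Of 25 enzymes of the TCA cycle and pyruvate entry 1 was positive (median -0.07), of 18 of ketone and branched-chain amino acid use 1 (median -0.08), and of 24 of glucose uptake and glycolysis 2 (median -0.05). Of 21 adult cardiomyocyte genes known to fall in a fetal programme 4 were positive (median -0.07), and the potassium channel gene Kcnd2, chosen after its value was seen, was lowest (-0.27 ± 0.08, adjusted p = 0.154). Genes of a list are not independent of each other. In each of the 43 lists 0 genes passed over all strains in edgeR, while DESeq2 called 1 gene each of the calcium handling, neutrophil, glucocorticoid and ketone lists.

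Using the level of Myh7 itself, in place of 2 classes, called more genes, nearly all with Cast in the fit. A slope on strain-centred log2 Myh7 called 974 genes (5.93%), 555 upward (3.38%) and 419 downward (2.55%), and 1 gene (0.00609%) when Cast was left out. That gene was S100a8, a neutrophil protein, with 64.0 CPM in NZO_8 and 0.152 to 0.931 in the other NZO libraries. In the fit with Cast, 9 of 16 glucocorticoid-induced genes rose with Myh7. They included Lcn2 (slope 1.03 ± 0.16 SE, adjusted p = 0.000198), Fkbp5, a chaperone of the glucocorticoid receptor (0.39 ± 0.12, adjusted p = 0.0360), and Nfkbia, the inhibitor of NF-kappa-B (0.33 ± 0.07, adjusted p = 0.00355). Of the 39 ribosomal protein genes 10 rose and 0 fell. Hexokinase Hk2 (-0.20 ± 0.04, adjusted p = 0.00141) was among 5 glycolysis genes that fell, and Pdhb, of pyruvate dehydrogenase (-0.13 ± 0.03, adjusted p = 0.00216), among 6 of the TCA list. Des and Mt2 were the members of the fetal list past this test, both upward.

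The 5 genes whose strain-centred log2 CPM was most like that of Myh7 over 63 libraries were Slc3a2 (Pearson r = 0.70), Oxct1 (-0.66), Apln (-0.64), Pla2g5 (-0.64) and Ldha (-0.62). Without the 7 Cast libraries these r were 0.55, -0.53, -0.47, -0.43 and -0.36. The values are descriptions, since the libraries share depth and composition. Slc3a2 encodes the heavy chain of amino acid transporters, Oxct1 an enzyme of ketone use, Apln the peptide apelin, Pla2g5 a secreted phospholipase and Ldha lactate dehydrogenase A. In high and low Cast hearts Slc3a2 was 32.3 to 47.0 and 19.8 to 24.3 CPM, and Apln 0.523 to 0.666 and 3.05 to 5.76. As classes over all strains none of the 5 passed in edgeR, with adjusted p from 0.106 for Slc3a2 to 0.194 for Apln.

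The high against low change differed between strains for 1394 genes (8.49%) by the strain interaction in edgeR, and for 42 once Cast was left out. Of the 1394, 87.2% were also called within Cast, which are 34.8% of the Cast calls. The test within each strain called 3497 genes (21.3%) in Cast, 1100 (6.7%) in WSB, 196 (1.19%) in NZO, 4 (0.0244%) in AJ and 2 (0.0122%) in NOD. Of the AJ calls 3 were higher (0.0183%) and 1 was lower (0.00609%), and both NOD calls were higher. In 129, B6 and PWK edgeR called 0, and 382, 429 and 479 genes there had an unadjusted p under 0.05. PWK hearts ranged from 322 to 2406 CPM of Myh7, a wider range than in NZO or WSB. Without WSB_1 the interaction called 2129 genes, and without Cast_6 910.

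**Figure D4:**
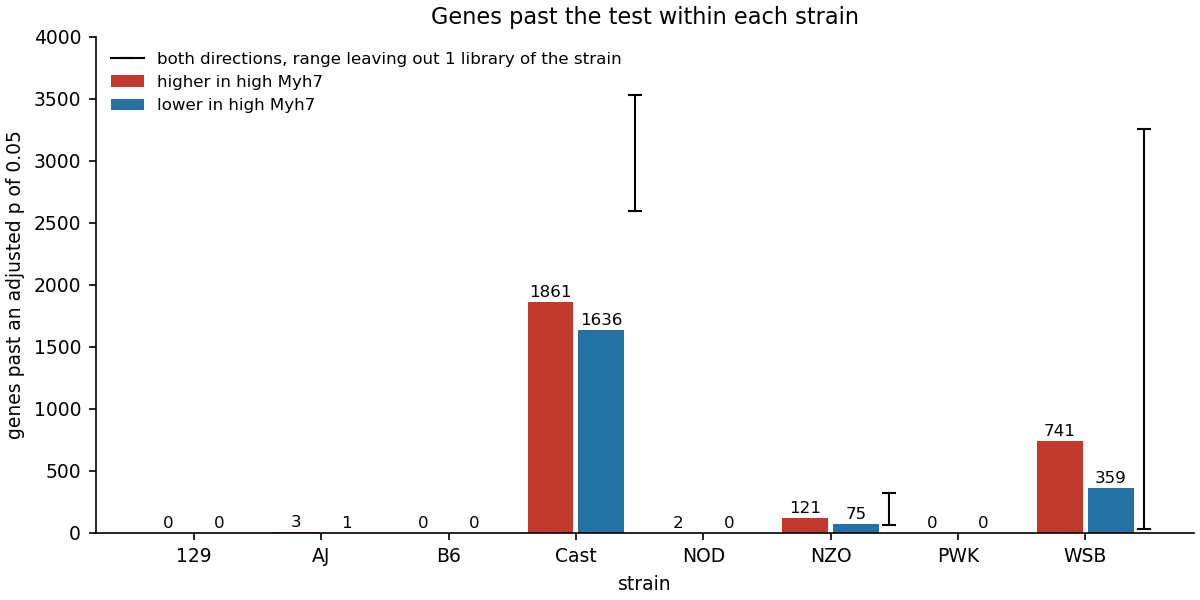
Genes past an adjusted p of 0.05 within each strain, higher (red) and lower (blue) in high Myh7 hearts; black lines give the lowest and highest total of both directions when 1 library of that strain is left out. The totals run from 2597 to 3533 in Cast and from 31 to 3258 in WSB.

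Most of the AJ and NOD calls had 1 library far above the rest. Gpnmb and Mmp12, both known in lipid-laden macrophages, were 80.4 and 47.4 CPM in the high heart AJ_7 and at most 2.71 and 0.676 in the other AJ hearts. Trub1, a pseudouridine synthase, was 4.42 to 6.48 CPM in high and 4.35 to 16.04 in low AJ hearts, which overlap, and the remaining call was the immunoglobulin gene Ighg2c. In NOD the calls were the T cell factor Tcf7, at 49.8 CPM in NOD_5 and at most 2.68 in the others, and Nsg2, at 9.996 CPM there and at most 0.660 elsewhere. Summed T and NK cell markers were 77.6 CPM in NOD_5, the highest of the 63 libraries. These genes were chosen after their values were seen.

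In Cast the 3 high hearts differed from the 4 low ones in 1861 genes that were higher (11.3%) and 1636 that were lower (9.96%). The 5 genes with the lowest interaction p all changed there. Fah, the last enzyme of tyrosine breakdown, was 44.9, 86.6 and 100.5 CPM in high and 10.7 to 14.2 in low hearts (2.66 ± 0.15 SE, edgeR adjusted p = 1.36e-19). Ctsl, the lysosomal protease cathepsin L, was 422 to 508 CPM in high and 115 to 169.9 in low hearts (1.77 ± 0.10). Trafd1, a negative regulator of innate immune signals, was 52.4 to 69.5 and 27.8 to 34.1 CPM (1.09 ± 0.08). Collagen Col3a1 was 19.0, 27.1 and 45.4 CPM in high and 194 to 263 in low hearts (-2.93 ± 0.21), and Col6a1 13.1 to 21.7 and 54.0 to 69.2 (-1.81 ± 0.14). None of these 5, picked by the interaction test on the same hearts, overlapped between the Cast groups. Of all genes, 12.1% lay without overlap higher and 12% lower in high Cast hearts. In the other 7 strains the change of Fah lay between -0.24 and 0.07 and that of Col3a1 between -0.25 and 0.21.

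**Figure D5:**
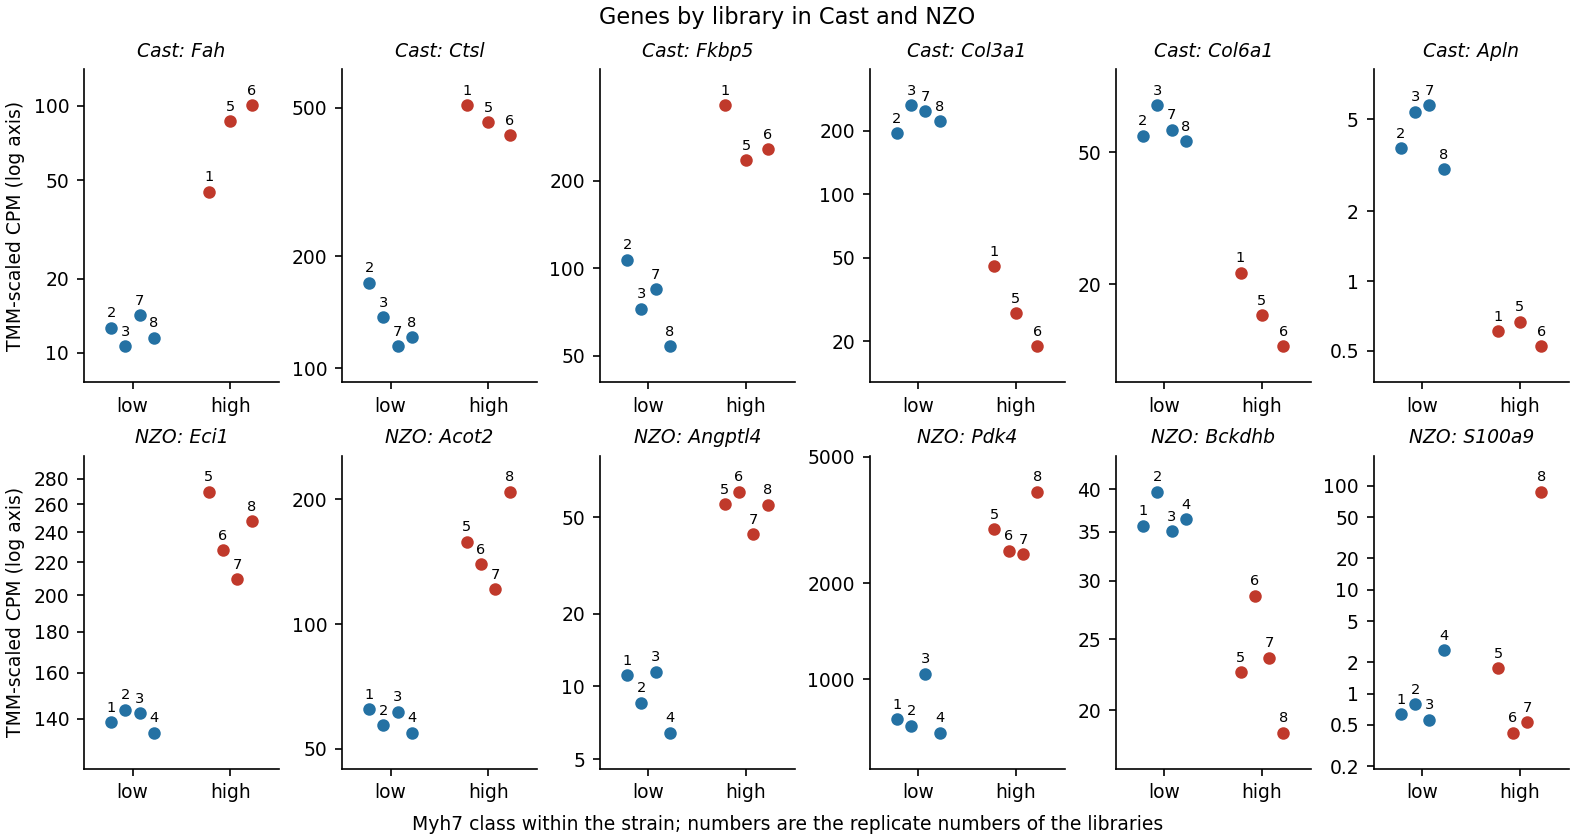
TMM-scaled CPM (log axes) of 6 genes in each Cast library (top) and 6 in each NZO library (bottom), by Myh7 class, with replicate numbers beside the points. High and low hearts do not overlap in the Cast panels, and S100a9 stands out in NZO_8, at 87.4 CPM.

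Most genes of fibroblasts and fibrillar matrix were lower in high Cast hearts. Of 28 measured, 19 fell and 3 rose (edgeR), beside 9.96% and 11.3% of all genes. Their median was -0.82 beside 0.01 for all genes. Besides Col3a1, the lowest were Cilp, a cartilage-type matrix protein (-2.10 ± 0.28 SE), Col1a1 (-2.03 ± 0.17) and the proteoglycan Lum (-1.51 ± 0.19). Col1a1 was 18.8 to 36.3 CPM in high and 96.1 to 122 in low hearts. The 3 that rose, a count near the share over all genes, were Lox, which cross-links collagen (1.89 ± 0.23), Ctgf (0.96 ± 0.26) and the proteoglycan Dcn (0.32 ± 0.10). Summed CPM of the list was 1192 to 1570 in high and 1814 to 2124 in low Cast hearts. Of macrophage markers 4 of 14 fell, such as Cx3cr1 (-2.06 ± 0.45), and 0 rose. Of MHC genes 4 of 16 fell, all of class II presentation, such as H2-Aa (-2.42 ± 0.62) and Cd74 (-2.31 ± 0.53).

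Part of the hormone and stress genes rose in the same hearts. Of glucocorticoid-induced genes 8 of 16 rose and 0 fell (edgeR), beside 11.3% and 9.96% of all genes, with a median of 0.87. Lcn2 was 9.53, 29.7 and 36.6 CPM in high and 1.83 to 2.90 in low hearts (3.51 ± 0.53 SE). Fkbp5 was 235 to 363 and 54.0 to 107 CPM (1.84 ± 0.37), and the metallothioneins Mt2 30.8 to 81.4 and 10.4 to 14.8 (1.98 ± 0.51) and Mt1 84.8 to 188 and 32.7 to 47.3 (1.64 ± 0.30). These 4 genes were picked as the largest rises of the list past the test in these hearts, so their lack of overlap is a description only. Of all genes, 12.1% lay without overlap higher in high Cast hearts. Neutrophil markers were high in part of the same hearts, with summed levels of 23.8 CPM in Cast_5 and 26.8 in Cast_6, 4.03 in Cast_1 and 2.90 to 7.63 in low hearts, over 4 of 10 listed genes. S100a8 (2.49 ± 0.91 SE) and Csf3r (1.29 ± 0.42) passed within Cast. Lcn2 was likewise highest in Cast_5 and Cast_6, at 36.6 and 29.7 CPM, and the part of neutrophils in these changes was not tested. Of genes of the unfolded protein and amino acid stress responses 7 of 17 rose and 2 fell, with the chaperone gene Dnajb9 at 1.23 ± 0.18. Of 15 heat shock and chaperone genes 4 fell, among them the mitochondrial Hspd1 (-0.84 ± 0.14) and Hspe1 (-0.63 ± 0.13), and 1 rose. Of 17 clock genes 3 rose, among them the repressors Cry2 (0.98 ± 0.18) and Cry1 (0.90 ± 0.29), and 0 fell. In a list of 17 these counts are near the shares of 11.3% and 9.96% over all genes. The labels used here hold no time of day of collection.

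Members of the fetal list passed in both directions in Cast. Summed markers of several cell types, among them the fibroblast and fast skeletal lists, separated the same hearts without overlap. Single genes did so often as well, with 12.1% of all genes higher and 12% lower without overlap in high Cast hearts. Ventricular cardiomyocyte markers summed to 6168 to 6812 CPM in high and 7945 to 8724 in low hearts, smooth muscle and pericyte markers to 2589 to 3113 and 2297 to 2341, and adipocyte markers to 5136 to 5906 and 3664 to 4619. For these lists the sums go against the median change of their genes, which was 0.04, -0.08 and -0.88. Slow skeletal muscle markers summed to 13806 to 14723 CPM in high and 15127 to 16760 in low hearts. Valve and cartilage-like markers summed to 64.0 to 77.6 and 38.8 to 48.5 CPM, where Prg4 rose and Comp and Fmod fell. The part of these cell types in the gene changes was not tested. Of the 33 measured genes of the fetal list 6 rose and 8 fell (edgeR), beside 11.3% and 9.96% of all genes. Those that rose were Mt2, Ctgf, the LIM protein Fhl1 (1.24 ± 0.23 SE), slow troponin T, Tnnt1 (0.80 ± 0.18), the Z-disc protein Csrp3 (0.54 ± 0.13) and desmin, Des (0.46 ± 0.11). Fhl1 was 311 and 473 CPM in Cast_6 and Cast_5 but 91.4 in Cast_1, below all low hearts at 92.7 to 159. Those that fell were Cilp, Gdf15, Meox1, Ankrd23, Fhl2, Xirp2, Pfkp and Thbs4. Fhl2 was 332 to 755 CPM in high and 959 to 1323 in low hearts (-0.97 ± 0.15).

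Among 31 sarcomere genes 4 rose and 6 fell in Cast (edgeR), beside 11.3% and 9.96% of all genes, so the count of those that rose is near the share over all genes. Myom2 was 1014 to 1276 CPM in high and 471 to 846 in low hearts (0.92 ± 0.21 SE). Lmod3, which acts at the thin filament's end, was -1.66 ± 0.17, and cardiac actin Actc1 was 3151 to 4274 CPM in high and 5294 to 7677 in low hearts (-0.90 ± 0.15). Of 55 regulators of the myosin isoforms 3 rose and 3 fell, which is below the share of all genes in each direction. The highest of them was Tbx5, a transcription factor of heart development, at 59.8 to 67.2 CPM in high and 25.2 to 33.9 in low hearts (1.07 ± 0.15).

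Fast skeletal muscle genes passed in 4 of 9 in Cast, all upward, with Cast_1 at the top of each. The summed list was lower in high Cast hearts, at 533.9 to 562 CPM against 595 to 620.1 in low ones. Of the other 5 members, none past the test, Eno3 was -0.18 ± 0.10 (SE, adjusted p = 0.222) and Casq1 -0.85 ± 0.38 (adjusted p = 0.106). Tnni2 was 4.18 CPM in Cast_1, 1.24 and 0.883 in the other high hearts and 0.0995 to 0.384 in low ones. Atp2a1 was 17.9 CPM in Cast_1 and 1.19 to 2.12 in the other 6. Ryr1 was 7.86 CPM in Cast_1 and 0.199 to 0.815 elsewhere, and without Cast_1 its change became -0.13 ± 0.74 (SE). Of 24 genes of glucose uptake and glycolysis 7 fell, such as Pfkp (-0.89 ± 0.15 SE, edgeR), Hk2 (-0.73 ± 0.13) and Ldha (-0.64 ± 0.09). The 2 that rose were the glucose carrier Slc2a1 (0.80 ± 0.15) and Gpi1 (0.35 ± 0.07). Of the fatty acid oxidation list 3 of 23 fell, with the carrier Fabp3 at -0.78 ± 0.14, and 1 rose, Cpt1a at 0.25 ± 0.09, counts near or below the 9.96% and 11.3% of all genes.

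The number of Cast calls depended on the class of the median heart. Leaving out each Cast library gave 2597 to 3533 genes, and a fit on the 7 Cast libraries alone 1758 (10.7%). With Cast_8, the heart at the median, counted as high, 1064 genes passed in Cast and 0 over all strains. Of 137 list genes chosen for naming within Cast, 80 passed in the fit on Cast alone, 52 with Cast_8 counted as high and 100 without Cast_5 or without Cast_6. All 137 kept their sign in these fits.

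In NZO genes of fat oxidation were higher in high hearts, where 121 genes rose (0.737%) and 75 fell (0.457%). Of the fatty acid oxidation list 9 of 23 rose and 0 fell (edgeR), and of targets of PPAR-alpha, a fatty acid sensor that drives such enzymes, 9 of 19 rose and 0 fell. Their medians were 0.34 and 0.45. Angptl4, which inhibits lipoprotein lipase, was 42.6, 56.4, 56.6 and 63.7 CPM in high and 6.45 to 11.5 in low hearts (2.54 ± 0.53 SE, adjusted p = 0.00589). Pdk4, which turns pyruvate dehydrogenase off, was 2465 to 3881 and 679 to 1040.4 CPM (1.90 ± 0.51). The groups did not overlap in either of these genes, which were picked as past the test. Of all genes, 5.24% lay without overlap higher and 5.8% lower in high NZO hearts. The thioesterases Acot1 (2.40 ± 0.29) and Acot2 (1.41 ± 0.18) and the oxidation enzymes Eci1 (0.77 ± 0.09) and Decr1 (0.71 ± 0.09) rose too.

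Some sugar and amino acid genes were lower in the same NZO hearts. Of 24 genes of glucose uptake and glycolysis 3 fell (edgeR), the carriers Slc2a1 (-0.63 ± 0.14 SE) and Slc2a4 (-0.48 ± 0.11) and the enolase Eno3 (-0.39 ± 0.09). None of the 24 rose past the test, beside 0.457% of all genes lower and 0.737% higher in high NZO hearts. Bckdhb, of branched-chain amino acid breakdown, was 18.7 to 28.6 CPM in high and 35.0 to 39.7 in low hearts (-0.65 ± 0.10). Since the high NZO hearts were of the Ddx3y class and the low ones of the Xist class, these changes cannot be told apart from a difference between those classes. With Xist as a covariate, which takes the Xist effect from the other strains, 20 of 23 list genes that the naming rule picked in NZO passed. Without NZO_8 the NZO calls fell to 67 (0.408%), and 10 of the 23 passed, with 22 of the same sign. Angptl4 was then 2.53 ± 0.56 (adjusted p = 0.0170) and Pdk4 1.74 ± 0.53 (adjusted p = 0.204). The neutrophil genes S100a8 and S100a9, called within NZO, were 64.0 and 87.4 CPM in NZO_8 and at most 0.931 and 2.62 elsewhere in the strain.

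In WSB the 1100 calls, 741 higher (4.51%) and 359 lower (2.19%), rested on WSB_1. Without it 31 genes (0.189%) passed within WSB and 0 of the 45 list genes named there, and with Xist as a covariate 142 genes passed (0.865%). Leaving out another high heart, WSB_9, gave 3258 genes. The matrix protein Mgp was 367 CPM in WSB_1, 97.8 to 128 in the other high hearts and 63.4 to 78.0 in low ones. The endothelial gene Egfl7 was 143 CPM in WSB_1 and 37.1 to 53.6 in the other 7. The alpha-1A adrenergic receptor gene Adra1a was 6.58 CPM in WSB_1, 22.1 to 27.3 in the other high and 36.8 to 48.1 in low hearts. The Adra1a groups did not overlap, as was so upward for 3.7% and downward for 3.71% of all genes in WSB. The change of Adra1a was -1.06 ± 0.23 (SE, edgeR adjusted p = 0.00686) with WSB_1 and -0.77 ± 0.20 (adjusted p = 0.0836) without it. Since the high WSB hearts were of the Xist class and the low ones of the Ddx3y class, the WSB changes cannot be told apart from a difference between those classes.

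The strain interaction met some lists more than others. Of 28 fibroblast and matrix genes 18 passed it, or 64.3% beside 8.49% of all genes, and of 19 PPAR-alpha targets 9 did, or 47.4%. Of the 33 fetal genes 8 passed, or 24.2%: Ankrd23, Tnnt1, Fhl1, Fhl2, Meox1, Thbs4, Cilp and Pfkp. Of the 39 cytosolic ribosomal protein genes 1 did.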

How the data were processed

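The authors deposited a table of estimated counts per gene for 63 heart libraries and a table of variance-stabilised values on a log2 scale. Per the submitters' processing notes the build is GRCm38 and DESeq2 was used, and aligner, counter and strand setting were not given in the sources used here. Of the deposited counts 18.4% were not whole, and counts were rounded for the tests. Genes under edgeR's filter with a minimum count of 10 were left out (2795 of 19220), and Myh7 was left out of the 16425 remaining. The variance-stabilised log2 values that the authors deposited served as an alternative only.

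Libraries were scaled by TMM and split at the strain median of Myh7. edgeR 4.0.16 (R 4.3.3, limma 3.58.1) fitted a quasi-likelihood model with strain as a block, a model with a separate high against low term for each strain, whose joint test is the interaction, and a slope on strain-centred log2 Myh7. p-values were adjusted by Benjamini-Hochberg over all genes at a threshold of 0.05. Log2 CPM values used a prior count of 2, and edgeR fold changes came from the fits at edgeR's default prior count. Library measures were tested with 100000 permutations of the classes within strains. DESeq2 1.42.0, limma, other splits, covariates and left-out libraries were alternatives. The fits were tested on simulated data.

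Genes named are Myh6, Acta1 and the fetal list, up to 15 genes per direction past the test whose average log2 CPM reached 1 and which had the same sign in at least 6 strains, up to 4 members of a list per direction past a test, the 5 with the smallest interaction p, and the 5 most like Myh7. Others are said to be chosen after their values were seen, and results of a few genes are not reported here. The split, the members and the 43 lists (746 of 778 listed entries measured) were chosen with earlier results of these data known. Replicate numbers were not taken to pair the samples.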

Additional observations from a re-analysis of the deposited data

Results flagged for a closer look

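The change between high and low Myh7 hearts differed between strains, by the interaction test in edgeR, for 1394 genes. Among the genes named, the interaction gave an adjusted p of 3.99e-15 for Fah, 7.01e-14 for Ctsl, 4.16e-12 for Col3a1, 4.16e-12 for Col6a1 and 2.93e-11 for Trafd1. In the fetal list it gave an adjusted p of 2.38e-05 for Cilp, 0.00229 for Pfkp, 0.00305 for Ankrd23, 0.00431 for Fhl2 and 0.00462 for Thbs4. It gave 0.0140 for Fhl1, 0.0291 for Meox1 and 0.0356 for Tnnt1. Of the genes most like Myh7 it gave 0.000825 for Apln, 0.00121 for Ldha, 0.00340 for Pla2g5, 0.00875 for Slc3a2 and 0.0333 for Oxct1. For Osbpl6 it gave 0.0375.

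Single libraries lay far from the others of their strain by Dixon's criterion, which chance alone meets in about 1 in 20 groups. Of 160 groups of values looked at, 20 met it. The library WSB_1 had a median correlation of 0.941 with its strain, 13806 CPM of Myh6, 5.58 of Snhg5, 9.01 of Osbpl6, 6.11 of Prlr, 891 of Oxct1 and 3.99 of Pla2g5. NZO_8 had a median correlation of 0.971, 535.8 CPM of Acta1, 51.0 of Slc3a2 and 0.899 of Apln. PWK_9, the PWK heart with the most Myh7, had 6.07 CPM of Prlr, 168 of Col3a1 and 3.10 of Apln. Acta1 was 636 CPM in 129_7. Nppa was 494 CPM in AJ_2, 397 in PWK_5 and 246 in WSB_6. Tmem151a was 1.07 CPM in B6_3 and Pla2g5 16.1 CPM in AJ_3.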

How the results depend on the processing

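The count of 5 genes over all strains moved with most choices. It was 1 with no filter on low counts, 49 with DESeq2 (0.37% of genes with an adjusted p), 2 with limma on log2 CPM, 1 with limma on the deposited values, 974 with the slope and 1 with the slope without Cast. It was 0 with Cast_8 counted as high, 0 without the middle pair of libraries of each strain, and 0 with the split made within strain and Xist class. It was 14 without PWK, 11 without AJ, 9 without WSB, 2 without B6 or NOD, 1 without Cast and 0 without 129 or NZO. It was 9 with an atrial covariate, 2 with Xist, 1 without genes of the X, Y and mitochondrial chromosomes, 28 without WSB_1 and 18 without WSB_1 and NZO_8. Leaving out 1 library gave 0 to 28. The 1394 interaction genes became 127 with Cast_8 as high, 42 without Cast and 2129 without WSB_1 (910 to 2129 leaving out 1 library of Cast, NZO or WSB). In Cast 3497 became 1064 with Cast_8 as high and 1758 on Cast alone (2597 to 3533 leaving out 1 library). In NZO 196 became 599 without WSB, 661 without WSB_1 and 409 on NZO alone (67 to 318 leaving out 1 library). In WSB 1100 became 616, 690 and 701 without AJ, B6 or PWK, 142 with Xist, 31 without WSB_1 and 8 on WSB alone (31 to 3258 leaving out 1 library). The cause was not tested.

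Estimates that changed sign were those of Acta1 without B6 (-0.011), without NOD (-0.00087) and leaving out 1 library (-0.040 to 0.081), Nppb (-0.067 by slope, -0.075 split within Xist class), Ankrd23 (0.011 without Cast), Myl4 (-0.016 by slope, -0.011 by slope without Cast), Fhl1 (-0.020 by slope without Cast) and Synpo2l (-0.066 split within Xist class). Leaving out 1 library gave -0.13 to 2.96 for Ryr1 within Cast and -0.37 to 5.08 for S100a9 within NZO. The cause was not tested.

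With the replicate number as a block, 4 genes passed over all strains, 3 of them among the 5, the interaction called 1028 and WSB 217. Same-numbered libraries had a median correlation of 0.05 over 199 pairs, 40 of them above 0.1, beside -0.01 for different numbers. Of 63 libraries 15 were most like their own number, and the numbers were not taken as pairs. In 129, AJ, B6, NOD and NZO, replicates 1 to 4 were of the Xist class and later ones of the Ddx3y class. The replicate block therefore partly follows the Xist class, whose part here was not tested.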
